A study of Mus musculus with 12 samples.

Results

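The replication-dependent histone genes were taken as all protein-coding genes on the main mouse chromosomes whose symbol begins with Hist1h, Hist2h, Hist3h or Hist4h, a rule on names that used no measured value. It found 67 of the 52962 genes in the deposited gene table: 6 for the linker histone H1, 18 for H2A, 18 for H2B, 12 for H3 and 13 for H4. The Hist1 cluster on chromosome 13 held 54 of them, the Hist2 cluster on chromosome 3 held 10, and 2 Hist3 genes and 1 Hist4 gene made up the rest.

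Core histones H2A, H2B, H3 and H4 form the protein spool of the nucleosome, and H1 binds the DNA that enters and leaves it. The genes studied here supply histones for newly copied DNA in S phase, while replacement variants such as H3.3 come from genes that work throughout the cell cycle. Most replication-dependent histone mRNAs end in a short stem-loop in place of a poly(A) tail. The stem-loop binding protein, SLBP, holds that structure, and cleavage is guided by the U7 small nuclear ribonucleoprotein. Some of these genes are also known to make polyadenylated RNA in cells that have left the cell cycle, as rods have.

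The series concerns the protein kinase CK2 and NRL, the transcription factor that sets rod fate, in rods, the dim-light photoreceptors of the retina. Retinas were electroporated with 1 of 4 constructs, and GFP-positive rods were picked by hand at postnatal day 8, with 50 to 100 cells in a library. The groups were shRNA mCsnk2a1 (a hairpin against Csnk2a1, which encodes a catalytic CK2 subunit), shRNA Control, pcDNA4c mCsnk2a1 (a Csnk2a1 expression vector) and pcDNA4c Control, with 3 libraries in each. The labels call the 3 libraries of a group independent RNA samples but do not tie them to animals, and the labels give no mouse strain and no promoter. The SMARTer stranded total RNA kit does not select for poly(A), so RNA ending in a stem-loop can enter the libraries.

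The 12 libraries held between 1608926 and 3567121 estimated counts assigned to genes. Levels below are CPM, counts relative to library size after TMM scaling, which matches the bulk of the genes between libraries. Levels compared between genes are TPM, which also divides by transcript length. Csnk2a1 itself measured 66.9, 57.2 and 8.51 CPM with shRNA Control and 12.0, 22.2 and 36.0 with shRNA mCsnk2a1, which overlap (log2 fold change -0.92, SE 0.88, edgeR adjusted p = 0.905). It measured 86.6, 25.0 and 28.2 CPM with pcDNA4c Control and 49.9, 144.7 and 121.9 with pcDNA4c mCsnk2a1, which also overlap (1.18, SE 0.88, edgeR adjusted p = 0.801). Rod markers were present in every library, with 10 genes summing to between 5143 and 14490 CPM. The library pcDNA4c mCsnk2a1 1 stood apart in Mki67, a proliferation marker, at 707 CPM against at most 157 CPM in the other 11. Its rod marker sum was the lowest, at 5143 CPM, but lay near that of shRNA Control 3 (5469 CPM). The rod sums of pcDNA4c mCsnk2a1 2 and 3 were 10620 and 11990 CPM. In the pcDNA4c Control libraries 14 macrophage and microglia markers summed to between 2783 and 3339 CPM, against 30.2 to 134.4 CPM in the other 9. Spp1, the largest of these markers, was at 2172, 2168 and 1705 CPM there, and had no count in any pcDNA4c mCsnk2a1 library. Markers of other cells summed to 2.35 to 777 CPM for progenitors, 11.4 to 114 CPM for cones, 48.7 to 244 CPM for endothelium and 0 to 34.5 CPM for red blood cells. In bulk libraries, fewer cells of a type and less RNA per cell cannot be told apart.

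The stem-loop was searched in the annotated transcripts after the stop codon and was found for 44 of the 67 genes. Of the 23 others, 15 have models that end at the stop codon, so no stem-loop could be found in them. A missing match therefore does not show that a gene lacks a stem-loop. The sequences below, from GENCODE M21 (GRCm38), are those of the members the results turn on, with the 16 bases of stem and loop in capitals and 5 flanking bases on each side.
Hist1h1c: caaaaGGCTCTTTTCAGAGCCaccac
Hist1h1e: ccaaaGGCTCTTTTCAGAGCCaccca
Hist1h1d: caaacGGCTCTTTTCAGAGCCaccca
Hist2h2aa1: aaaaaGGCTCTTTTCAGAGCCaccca
Hist1h3e: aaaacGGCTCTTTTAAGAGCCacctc
Hist1h4a: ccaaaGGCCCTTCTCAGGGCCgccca
Hist1h4d: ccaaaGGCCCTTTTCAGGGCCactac
Hist4h4: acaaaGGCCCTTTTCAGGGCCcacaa
The same 16 bases were shared by Hist1h1c, Hist1h1e and Hist1h1d, and by 9 H2A, 8 H2B and 5 H3 genes. H4 genes had other forms, the most common of which, shown for Hist1h4d and Hist4h4, stood in 6 genes. The Hist1h3e form stood in 3 H3 genes, in the H2B genes Hist1h2bb and Hist1h2bk and in Hist1h1t, and that of Hist1h4a was found in no other member.

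Annotated 3′ ends differed widely. The models of 23 genes ran 100 or more bases past the stem-loop, and those of 15 genes ended at the stop codon. The Hist1h1c model ran 840 bases past it, that of Hist1h1e 1153, that of Hist1h4d 770 and that of Hist4h4 2445. The Hist1h1d model is 7425 bases long, so its per-length level, 3.07 TPM on average, was low beside a mean of 52.2 CPM. Counts for a gene with such a model can come from either side of the stem-loop, and the gene table does not separate them.

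Promoters from RefSeq (GRCm38.p6) were matched for 61 members, as windows from 250 bases before to 50 after the gene start. Letters were searched on both strands, and no matches of different motifs overlapped in the member windows. CCAAT, the letters bound by NF-Y, was found in 85.2% of member windows against 37.4% of 32851 promoters of all genes. It was in every matched H1, H2A, H2B and H3 window but in 25% of the H4 windows. TATAAA was found in 55.7% against 13.6%. ATTTGCAT, the octamer bound by OCT1, was found in 21.3% against 1.74%, and stood in 7 H2A and 6 H2B windows and in no other class. Many H2A and H2B genes are neighbours with overlapping windows, so the same site can be counted for both. The octamer was shared in this way by Hist1h2aa and Hist1h2ba, by Hist1h2ae and Hist1h2bg, and by Hist1h2ah and Hist1h2bk. The CCAAT and TATAAA shares also count windows and not separate sites. AAACACA, known from H1 promoters, was in 4 of 5 H1 windows, against 7.18% of all promoters. The 250 bases before the start are shown for the pair of H1 genes with the highest levels, with matches to these motifs in capitals.
Hist1h1c: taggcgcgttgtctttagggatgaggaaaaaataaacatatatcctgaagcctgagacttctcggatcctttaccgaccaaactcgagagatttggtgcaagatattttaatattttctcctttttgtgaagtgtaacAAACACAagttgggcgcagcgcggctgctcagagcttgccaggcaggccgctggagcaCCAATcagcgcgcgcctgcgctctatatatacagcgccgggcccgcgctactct
Hist1h1e: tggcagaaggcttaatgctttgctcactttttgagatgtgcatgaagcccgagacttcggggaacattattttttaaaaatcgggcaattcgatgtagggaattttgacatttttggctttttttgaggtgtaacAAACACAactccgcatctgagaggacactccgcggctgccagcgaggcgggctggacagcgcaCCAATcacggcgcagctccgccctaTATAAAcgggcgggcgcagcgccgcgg
The Hist1h1c stretch is chr13:23738557-23738806 on the plus strand, and the Hist1h1e stretch is chr13:23622559-23622808 on the minus strand. AAACACA began 112 bases before the start in Hist1h1c and 115 before it in Hist1h1e, and CCAAT began 54 and 52 bases before it. A match is a description of these letters and does not show that a factor binds.

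Many members share sequence, which limits what any one of them can tell. Each annotated transcript was cut into words of 31 bases, and the share of words found in no other gene, on either strand, was counted. A word whose only match lay on the opposite strand was thus counted as shared, although the libraries are stranded. It was 80% or more for 11 members, under 20% for 21 members and 0% for 5: Hist2h2aa1, Hist2h2aa2, Hist2h2bb, Hist2h3b and Hist2h3c1. All words of Hist2h2aa2 recur in Hist2h2aa1, a near-identical H2A copy on the same chromosome, so reads of this pair can be split either way. The words of these 5 genes also recur in overlapping noncoding gene models, Gm20628, Gm20632, Gm20633 and Gm20634, which averaged between 3.66 and 14.7 CPM. Uniqueness was 88.6% for Hist1h1c, 85.3% for Hist1h4d, 85.7% for Hist4h4, 97.4% for Hist2h4 and 65.3% for Hist1h1e, whose remaining words lie mostly in the overlapping Hist1h2be. It was 15.6% for Hist1h3e and 12.0% for Hist1h2bn.

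**Figure D1:**
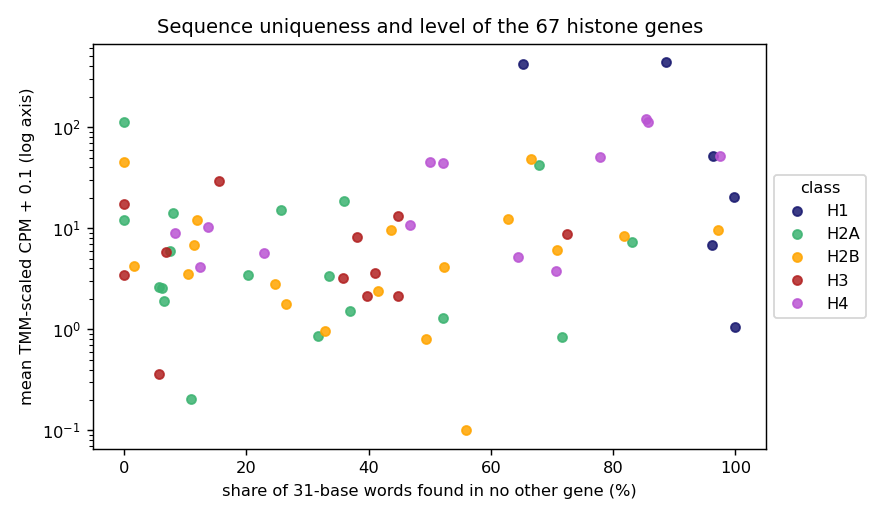
Each point is 1 of the 67 histone genes, placed by the share of its 31-base words found in no other gene on either strand (x axis, percent) and its mean level over 12 libraries (y axis, TMM-scaled CPM plus 0.1, log axis), coloured by class. The 2 highest genes, Hist1h1c and Hist1h1e, lie at 88.6% and 65.3%, and 5 genes lie at 0%.

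Per length, Hist1h1c was the most abundant member, at 142 TPM on average over the 12 libraries, rank 107 of 21816 protein-coding genes. The leading H2A gene was Hist2h2aa1 (127 TPM), the leading H2B gene Hist2h2bb (110.0 TPM), the leading H4 gene Hist1h4h (75.3 TPM) and the leading H3 gene Hist2h3b (25.7 TPM). As Hist2h2aa1, Hist2h2bb and Hist2h3b have 0% unique words, their places depend on how shared reads were split. The Hist2h2bb model is only 381 bases long and ends at the stop codon. In CPM Hist2h2bb was below Hist1h2bc, at 45.1 against 48.5 on average. Hist1h1e, the second H1, reached 107 TPM. Counts were concentrated: Hist1h1c and Hist1h1e together took between 36.7% and 50.1% of all member counts in a library, with a median of 44.2%. The 6 H1 genes took 38.2% to 57.3% of member counts but 17.3% to 28.8% of member TPM, which divides by model length.

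Only 14 members had a count in all 12 libraries, 24 had one in 7 to 11, 28 in 1 to 6, and 1, Hist1h2ba, which encodes a testis H2B, in none. A filter on low counts kept 47 members for testing: 5 H1, 8 H2A, 13 H2B, 8 H3 and all 13 H4 genes. The 20 others had totals of at most 89 estimated counts over 12 libraries, among them Hist1h1t, a testis H1, seen in a single library. The number of members with a count was 46, 39 and 52 with shRNA Control, 44, 45 and 46 with shRNA mCsnk2a1, and 42, 41 and 41 with pcDNA4c Control. It was 30, 31 and 26 with pcDNA4c mCsnk2a1, below all other libraries. Thinned to the depth of the smallest library, the expected numbers there were 29.9, 29.8 and 25.1, against 39.0 to 51.8 elsewhere. Over all genes the numbers also differed between groups: at that depth 15358 to 18385 genes were seen with pcDNA4c mCsnk2a1, 16914 to 20024 with shRNA mCsnk2a1 and 20352 to 25237 in the control libraries. The part of that difference in the member counts was not tested.

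Replacement histones offer a scale. H3f3a and H3f3b, which both encode H3.3, together measured between 205.4 and 600.8 TPM, above the 12 replication-dependent H3 genes summed (8.96 to 203.2 TPM) in all 12 libraries. The opposite order held for the other classes with such variants. The 6 H1 genes summed to between 146.0 and 492 TPM, against 11.3 to 32.3 TPM for the replacement linker histones H1f0 and H1fx. The 18 H2A genes summed to between 185.9 and 451 TPM, against 36.4 to 159.7 TPM for 6 H2A variants, H2afz among them. Both orders held in 12 of 12 libraries.

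The first comparison, shRNA mCsnk2a1 against shRNA Control, asked what a hairpin against Csnk2a1 did to histone RNA. The 67 genes summed to 1782, 1717 and 2175 CPM with shRNA Control and to 3275, 2592 and 3300 CPM with shRNA mCsnk2a1. The groups did not overlap, and the mean difference was 0.69 on the log2 scale. No p is given for this sum, as the genes were chosen with earlier results of these data known. Leaving out single libraries moved this log2 ratio between 0.63 and 0.81, and leaving out Hist1h1c, the highest member, gave 0.57. On other scales the difference was smaller, at 0.50 in CPM by library size and 0.25 in TPM. The no-change level also differs between scales, as the median of 5133 genes with 10 or more counts in every library moved by 0.15 in CPM and -0.25 in TPM between these groups. H1 led it: the H1 genes summed to 681, 802 and 944 CPM in the controls and 1816, 1252 and 1630 CPM with the hairpin, a log2 ratio of 0.95. H4 genes stood at 633, 392 and 660 CPM against 733, 689 and 984 CPM (0.53), without overlap. The H4 groups overlapped in TPM (0.26) and as a percent of counts (0.35), and without shRNA Control 2 the CPM ratio was 0.29. The H2A, H2B and H3 sums overlapped between the groups. Without Hist1h1c and Hist1h1e the other 65 genes summed to between 1041 and 1297 CPM in the controls and between 1465 and 1768 CPM with the hairpin (0.49). These sums overlapped in TPM (0.16) and as a percent of counts (0.31).

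**Figure D2:**
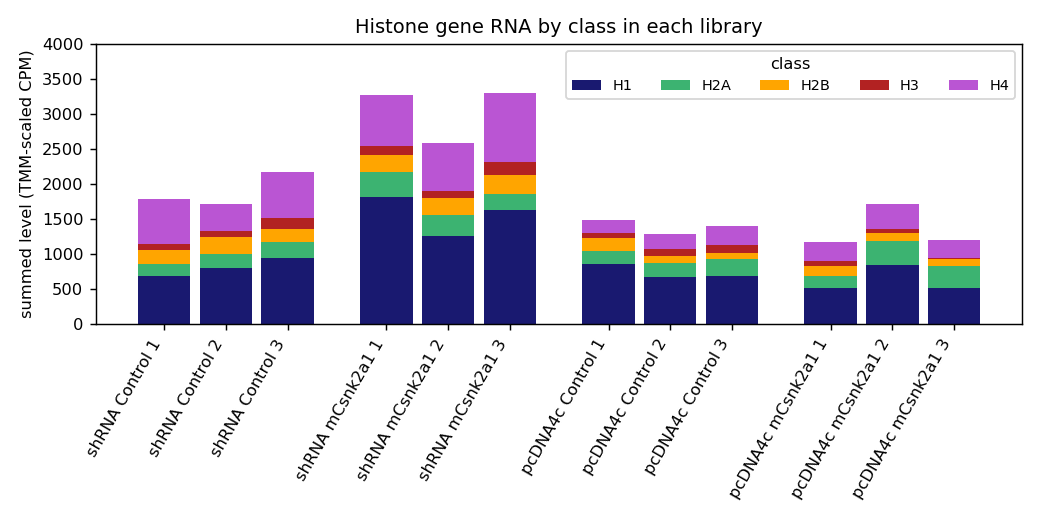
Bars show the summed level of the 67 histone genes in each of 12 libraries (y axis, TMM-scaled CPM), stacked by class. The 3 shRNA mCsnk2a1 libraries stand at 2592 to 3300 CPM, above all other libraries, and the H1 and H4 segments take up most of each bar.

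The edgeR quasi-likelihood test called 0 members at an adjusted p of 0.05, and 0% of the 20267 genes tested. Unadjusted, 2 members had p under 0.05, Hist1h1c and Hist2h2aa1, both higher, against 3.23% of all genes higher and 5.1% lower at that level. DESeq2 and limma voom called 0 members, beside 0.903% and 0.00987% of all genes. Adjusted p-values of members ranged from 0.598 to 1.00. Of the 47 members 31 were higher and 16 lower, with a median log2 fold change of 0.29 against -0.03 over all genes. By library size the split was 27 to 20. Levels without overlap were seen for 5 members higher (10.6% of the 47, against 5.61% of all genes) and 1 lower (against 6.68%). These were Hist1h1c, Hist1h1e, Hist1h2bl, Hist1h4d and Hist2h2aa1, and Hist1h3f on the lower side.

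Hist1h1c, a somatic linker histone gene at chr13:23738808-23740367 with 1 exon, measured 295.0, 386 and 356 CPM with shRNA Control and 1017, 588 and 704 CPM with shRNA mCsnk2a1. Every hairpin library lay above every control. The log2 fold change was 1.16 (SE 0.37, edgeR adjusted p = 0.598), and its adjusted p ranged from 0.186 to 0.874 over the alternatives. In TPM it measured 120.4, 160.4 and 138 against 299, 188 and 218, again without overlap.

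Hist1h1e, another somatic linker histone gene, at chr13:23620629-23622558, measured 359, 289 and 522 CPM with shRNA Control and 624, 539 and 829 CPM with shRNA mCsnk2a1. The groups were separate by a narrow margin, between shRNA Control 3 and shRNA mCsnk2a1 2. The log2 fold change was 0.77 (SE 0.39, edgeR adjusted p = 0.607). In TPM the groups overlapped, as shRNA Control 3 stood at 159.6 and shRNA mCsnk2a1 1 and 2 at 144 and 135.

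Among core histones, Hist1h4d, an H4 gene at chr13:23581598-23582735, measured 135.8, 113.7 and 131 CPM with shRNA Control and 216, 148 and 425 CPM with shRNA mCsnk2a1. The groups did not overlap, and shRNA mCsnk2a1 3 was far above the other libraries (log2 fold change 1.05, SE 0.57, edgeR adjusted p = 0.626). Without that library the log2 fold change was 0.52, and in TPM the groups overlapped, at 80.7, 68.9 and 74.1 against 92.1, 68.6 and 191. Hist2h2aa1, an H2A gene at chr3:96245497-96246082, read 18.7, 7.14 and 57.9 CPM against 172, 132 and 83.1 CPM (2.21, SE 0.71, edgeR adjusted p = 0.598). Because its copy Hist2h2aa2 shares its words, the pair is better read as a sum. That sum was 80.9, 42.9 and 68.6 CPM against 172, 132 and 118 CPM, a log2 ratio of 1.17, still without overlap.

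Levels of other abundant members overlapped between the groups. Hist4h4, the single gene of the H4 locus on chromosome 6, read 212, 91.1 and 167 CPM against 192, 222 and 135.9 CPM (log2 fold change 0.23, SE 0.62, edgeR adjusted p = 1.00). Hist1h1d, a further linker histone gene, read 11.4, 64.3 and 47.1 CPM against 116.8, 89.2 and 53.8 CPM (1.08, SE 0.90, edgeR adjusted p = 0.861). Hist1h2bc, the most abundant H2B gene by CPM, read 34.7, 30.4 and 51.6 CPM against 39.8, 104.3 and 88.8 CPM (1.00, SE 0.78, edgeR adjusted p = 0.839). The log2 fold changes of Hist2h2bb, Hist2h3b, Hist1h4h, Hist1h4c and Hist2h4 were 0.36, 0.09, 0.95, 0.05 and -0.28, and all overlapped too.

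**Figure D3:**
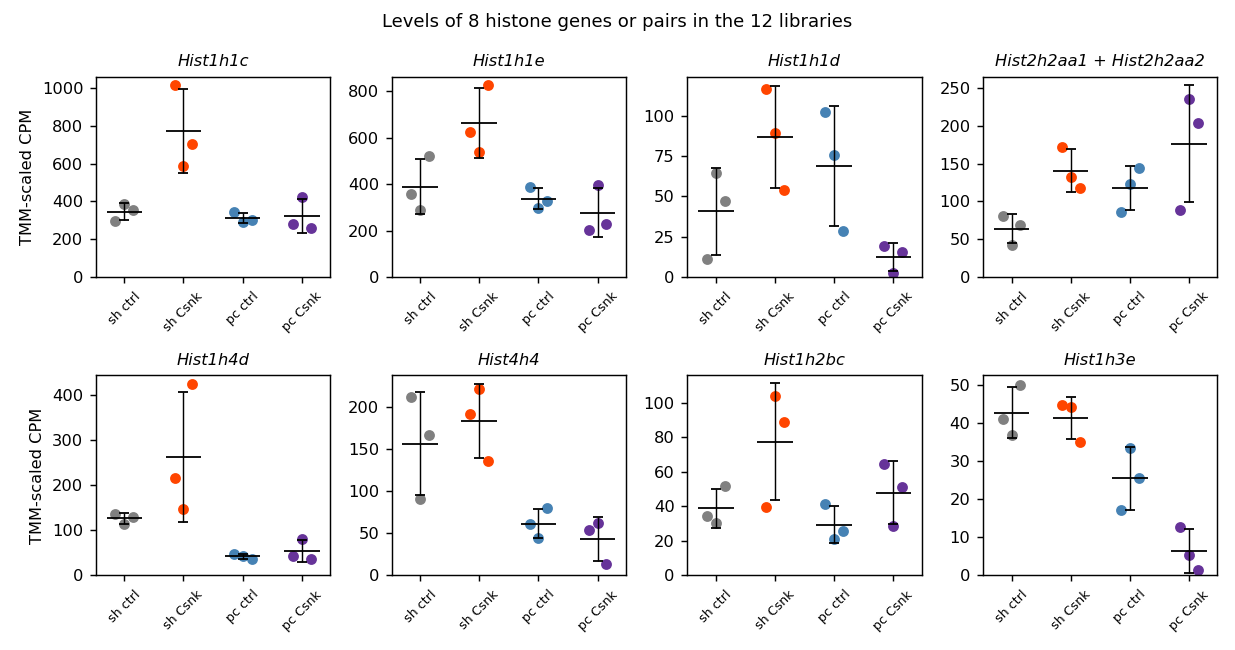
Points are single libraries, the horizontal lines are group means and the bars are 1 SD (y axes, TMM-scaled CPM, starting at 0); the x labels stand for shRNA Control, shRNA mCsnk2a1, pcDNA4c Control and pcDNA4c mCsnk2a1. Hist1h1c lies between 588 and 1017 CPM in the 3 shRNA mCsnk2a1 libraries and at or below 425 CPM in the other 9.

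Levels of other gene groups moved beside the histone sum. Rod markers summed to 7603, 6140 and 5469 CPM with shRNA Control and 11570, 14490 and 12530 CPM with shRNA mCsnk2a1, without overlap, and all 10 were higher. Müller glia markers, 8 genes, summed to between 345 and 530.5 CPM against between 918 and 1291 CPM, and bipolar markers, 6 genes, to between 404 and 570.4 CPM against between 647 and 1768 CPM. Progenitor markers, 7 genes, stood at 147, 98.2 and 137 CPM against 212, 255 and 204 CPM, without overlap, but the 6 other than Mki67 overlapped. Macrophage markers were lower with the hairpin, at 93.9, 75.0 and 134.4 CPM against 64.2, 30.2 and 59.9 CPM, and overlapped once Cx3cr1 was left out. The 30 S phase and cell cycle genes overlapped, at 618, 371 and 458 CPM against 571, 439 and 550.2 CPM. The part of these markers in the histone difference was not tested.

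The second comparison, pcDNA4c mCsnk2a1 against pcDNA4c Control, asked the same of the expression vector. The 67 genes summed to 1494, 1293 and 1399 CPM in the controls and 1177, 1720 and 1205 CPM with the vector, which overlap (log2 ratio -0.05). In TPM the groups did not overlap, at 706, 683 and 761 TPM against 920, 1203 and 872 TPM (0.47), so the sum has no stable direction across scales. TPM and CPM also moved apart over other genes: the median of 5133 genes moved by 0.50 in TPM and by 0.14 in CPM between these groups. The H3 sum was the most different class, at 62.0, 110.0 and 107 CPM in the controls and 62.1, 49.8 and 19.5 CPM with the vector. Those groups touched, because pcDNA4c Control 1 and pcDNA4c mCsnk2a1 1 were level (log2 ratio -1.20, and -1.13 in TPM). Without pcDNA4c mCsnk2a1 3, the lowest library, the H3 ratio in CPM was -0.70. As a percent of counts the H3 groups were separate by a narrow margin (-1.34). H1 and H4 overlapped in CPM, with log2 ratios of -0.28 and 0.40, while in TPM H4 was higher with the vector without overlap (0.98). H2A and H2B also overlapped in CPM (0.37 and 0.01). In TPM H2A was higher with the vector without overlap (0.73), and H2B overlapped (0.205).

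The edgeR test of the vector called 0 members, beside 0.0987% of all genes. Unadjusted p was under 0.05 for 4 members, all lower, Hist1h2bn, Hist1h1d, Hist1h2ah and Hist1h3i, beside 6.58% of all genes lower and 2.15% higher at that level. Members had 17 higher and 28 lower values, 2 having no count in either group, with a median of -0.41 against -0.16 over all genes. Of these, 7 lower members had no count in any vector library, and 1 higher member had none in any control. The 14 members with a count in all 12 libraries went the other way, with 10 higher and 4 lower. Their median was 0.315, against 0.059 over the 8151 genes with a count in all 12 libraries. Without overlap were 1 higher, Hist1h4a (against 3.73% of all genes), and 3 lower, Hist1h1d, Hist1h3b and Hist1h3e (6.38% of the 47, against 11.8% of all genes). Limma voom called 0 members, beside 0.183% of all genes, and DESeq2 called 1, Hist1h2bn, where DESeq2 called 1.23% of all genes.

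Hist1h2bn, an H2B gene at chr13:21754123-21754503, read 20.2, 23.5 and 0 CPM with pcDNA4c Control and had no count in any pcDNA4c mCsnk2a1 library. Since pcDNA4c Control 3 was also at 0, the groups meet at 0. With a floor of 3 counts set for the vector group, its pooled level was 42.5-fold lower there (edgeR adjusted p = 0.519, DESeq2 adjusted p = 0.018). This fold pools the 3 libraries of a group, so it does not cover the spread between libraries and is no lower limit. Hist1h2ah and Hist1h3i, 14.0-fold and 11.1-fold lower by the same pooled measure, rested on 1 and 2 control libraries with counts. With 12.0%, 7.5% and 6.8% of their words unique, the 3 genes are among those whose reads can be assigned to copies.

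Hist1h1d read 102.3, 76.0 and 28.8 CPM with pcDNA4c Control and 19.2, 2.51 and 15.4 CPM with pcDNA4c mCsnk2a1. Every vector library lay below every control (log2 fold change -2.48, SE 0.94, edgeR adjusted p = 0.568). Its words are 96.3% unique. Hist1h3e, an H3 gene, read 17.2, 33.5 and 25.5 CPM against 12.7, 5.33 and 1.34 CPM, also without overlap (-1.97, SE 1.06, edgeR adjusted p = 0.6). In the other direction Hist1h4a, an H4 gene, read 9.84, 37.0 and 37.1 CPM against 60.8, 63.3 and 42.0 CPM (0.98, SE 0.83, edgeR adjusted p = 0.855).

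The abundant H1 genes gave overlapping levels. Hist1h1c read 341, 292 and 300.3 CPM with pcDNA4c Control and 282, 425 and 259 CPM with the vector (log2 fold change 0.05, SE 0.36, edgeR adjusted p = 1.00). Hist1h1e read 390.1, 298 and 328 CPM against 203, 398 and 229 CPM (-0.29, SE 0.39, edgeR adjusted p = 0.967). In both genes pcDNA4c mCsnk2a1 2 was the highest of its group. The pair Hist2h2aa1 and Hist2h2aa2 summed to 86.6, 123 and 144 CPM against 89.2, 236 and 204 CPM, and all of it was assigned to Hist2h2aa1. Hist4h4, Hist1h4d and Hist1h2bc had log2 fold changes of -0.51, 0.33 and 0.71, and their groups overlapped.

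**Figure D4:**
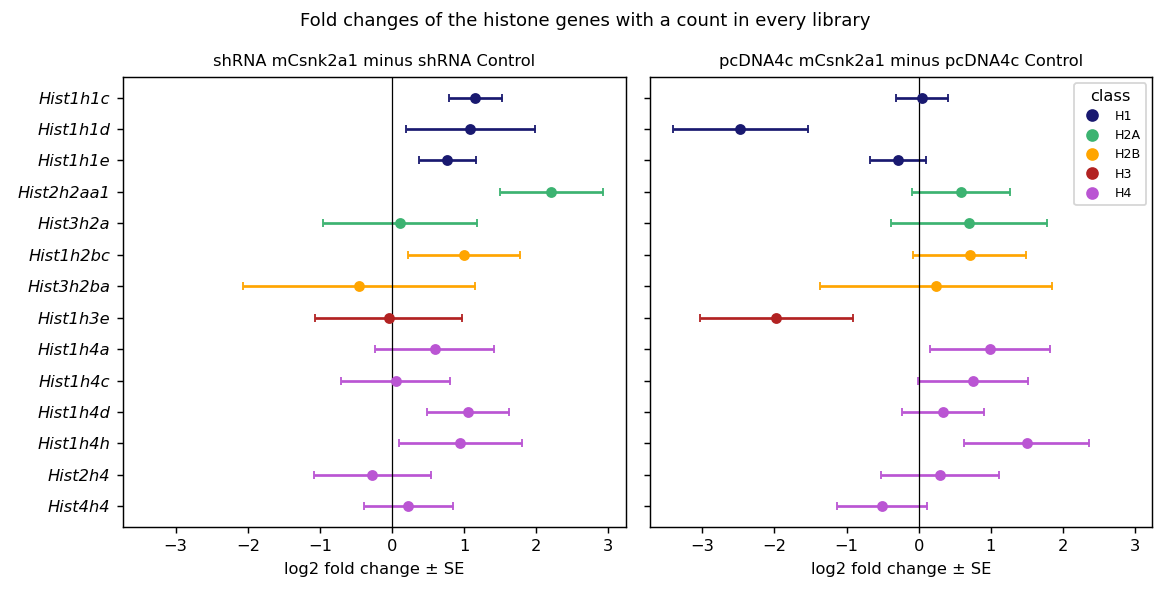
Points are log2 fold changes from the edgeR fit (x axis) of the 14 members with a count in all 12 libraries, with bars of 1 SE, for the hairpin comparison (left) and the expression vector comparison (right), coloured by class. Hist1h1c stands at 1.16 on the left and 0.05 on the right, and Hist1h1d at 1.08 and -2.48.

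Leaving out pcDNA4c mCsnk2a1 1, the library that stood apart, left 0 members past the threshold. Over the fits that left out 1 library, the histone sum of this comparison ranged from -0.23 to 0.05 on the log2 scale. The histone sum of pcDNA4c mCsnk2a1 1, 1177 CPM, was the lowest of all 12 in TMM-scaled CPM only. In TPM it was 920, above the pcDNA4c Control libraries (683 to 761 TPM) and pcDNA4c mCsnk2a1 3 (872 TPM). As a percent of counts pcDNA4c mCsnk2a1 3 was lower (0.109 against 0.117). Cell cycle genes summed to 1175 CPM in pcDNA4c mCsnk2a1 1 and to 360.3 and 352 CPM in the other vector libraries. Mki67 alone gave 707 CPM of that cell cycle sum. The 29 other cell cycle genes summed to 468, 360 and 352 CPM with the vector, below the 507, 646 and 521 CPM of the controls. Macrophage markers summed to 2783 to 3339 CPM in the controls against 81.2 to 123 CPM with the vector, with all 14 lower. Of these Lyz2, Mpeg1 and Spp1 passed the edgeR threshold, which 0.0987% of all genes passed. Cone markers, at 70.3 to 114 CPM against 11.4 to 24.1 CPM, and endothelium markers, at 70.0 to 84.2 CPM against 52.0 to 66.1 CPM, were also lower without overlap. The endothelium sums overlapped once Cdh5 was left out, at 40.0 to 63.0 CPM in the controls against 52.0 to 65.5 CPM with the vector. Bipolar markers stood at 145.0 to 258 CPM against 725 to 860.4 CPM, with all 6 higher with the vector. Müller glia markers summed to 1171 to 1524 CPM against 437 to 563 CPM, a difference that lay in Apoe, an apolipoprotein gene. Apoe averaged 1084 CPM in the controls and 100.6 CPM with the vector, and fell (edgeR adjusted p = 0.0025). The 7 other Müller glia markers went the opposite way, from 245 to 293 CPM in the controls to 330 to 486 CPM with the vector. Their part in the histone values was not tested.

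The effects of the hairpin and of the vector were then set against each other, as the vector effect minus the hairpin effect. For this difference edgeR called 0 members, beside 0.0197% of all genes. An unadjusted p under 0.05 was seen for 5 members, all lower, beside 5.16% of all genes lower and 3.19% higher: Hist1h1d, Hist1h2bn, Hist1h2ah, Hist1h3i and Hist1h1c. DESeq2 and limma voom called 0, beside 1.03% and 0.00493% of all genes. Hist1h1d differed by -3.56 (SE 1.29, edgeR adjusted p = 0.493) and Hist1h1c by -1.11 (SE 0.51, edgeR adjusted p = 0.588). Of the 47 members 33 were lower and 14 higher, with a median of -1.06 against -0.15 over all genes. All 8 tested H3 genes were on the lower side, with a median of -2.68. Of these, Hist1h3i (-9.16, SE 3.92), Hist1h3a (-8.92, SE 4.38) and Hist2h3c2 (-7.255, SE 3.97) each had a group with no count. H3 genes also share words, as Hist1h3e does with Hist1h3f (75.2%), so they are not separate readings. The 14 members with a count in all 12 libraries split into 8 lower and 6 higher. Their median was -0.50, against -0.025 over all genes with a count in all 12 libraries. This contrast is built from the same libraries as the first 2 comparisons.

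The control vectors were compared with each other, as shRNA Control minus pcDNA4c Control, which uses the control libraries of the comparisons above. H4 RNA was higher with shRNA Control, at 633, 392 and 660 CPM against 199, 216 and 269 CPM, without overlap (log2 ratio 1.27, and 1.82 in TPM). The fitted difference was above 0 for 13 of 13 H4 genes, with a median of 1.52. Some H4 genes share most of their words, as Hist1h4m does with Hist1h4n (91.7%), so the 13 are not separate readings. Some were also sparse, and Hist1h4j had no count with pcDNA4c Control. H1 overlapped in CPM (681 to 944 against 672 to 856 CPM; log2 ratio 0.12), but in TPM it was higher with shRNA Control without overlap (252 to 324 against 146.0 to 189 TPM; 0.79). All 67 genes summed to a log2 ratio of 0.43 in CPM and 1.09 in TPM, without overlap on either scale. The median of the 5133 genes moved by -0.03 in CPM and 0.56 in TPM between these groups. Macrophage markers summed to 75.0 to 134.4 CPM with shRNA Control against 2783 to 3339 CPM with pcDNA4c Control, and bipolar markers to 404 to 570.4 CPM against 145.0 to 258 CPM. Müller glia markers summed to 345 to 530.5 CPM against 1171 to 1524 CPM, and again the difference lay in Apoe (101.5 against 1084 CPM on average). The 7 others stood at 291 to 396 CPM with shRNA Control and 245 to 293 CPM with pcDNA4c Control, and 6 of the 8 markers were higher with shRNA Control. Their part in the H4 difference was not tested.

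Between the control vectors edgeR called 0 members, beside 0.0691% of all genes, and adjusted p was 1.00 for each of the 47. Unadjusted p was under 0.05 for 4 members higher (against 1.44% of all genes) and 1 lower (against 2.77%). DESeq2 and limma voom called 0, beside 0.34% and 0.0592% of all genes. Members without overlap were 7 higher (14.9% of the 47, against 5.13%) and 2 lower (against 8.56%). Of the 47, 34 were higher, with a median of 0.90 against 0.00 over all genes.

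Hist1h4d read 135.8, 113.7 and 131 CPM with shRNA Control and 46.7, 44.0 and 37.1 CPM with pcDNA4c Control, a wide gap with little spread on either side (log2 fold change 1.57, SE 0.58, edgeR adjusted p = 1.00). Hist4h4 read 212, 91.1 and 167 CPM against 61.0, 44.5 and 79.8 CPM (1.34, SE 0.63, edgeR adjusted p = 1.00). Hist2h4, an H4 gene on chromosome 3, read 83.5, 39.3 and 110.1 CPM against 17.2, 31.5 and 41.6 CPM, which overlap slightly (1.37, SE 0.83, edgeR adjusted p = 1.00). These 3 H4 genes have 85.3%, 85.7% and 97.4% unique words.

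The H2A pair shows how copies split. Hist2h2aa2 read 62.2, 35.7 and 10.8 CPM with shRNA Control and had no count with pcDNA4c Control, a pooled 72.1-fold higher against the floor (edgeR adjusted p = 1.00). Hist2h2aa1 went the other way, with a log2 fold change of -2.08 (SE 0.71, edgeR adjusted p = 1.00). Their sum was 64.1 ± 19.4 CPM (SD, n = 3) with shRNA Control and 118 ± 29.1 CPM (SD, n = 3) with pcDNA4c Control, without overlap (log2 ratio -0.90). In TPM the sums overlapped, at 73.7 to 136 against 80.7 to 144 TPM (-0.15). Hist1h2bk, a pooled 9.06-fold higher against the floor, had counts in 2 of 3 shRNA Control libraries and in no pcDNA4c Control library.

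**Figure D5:**
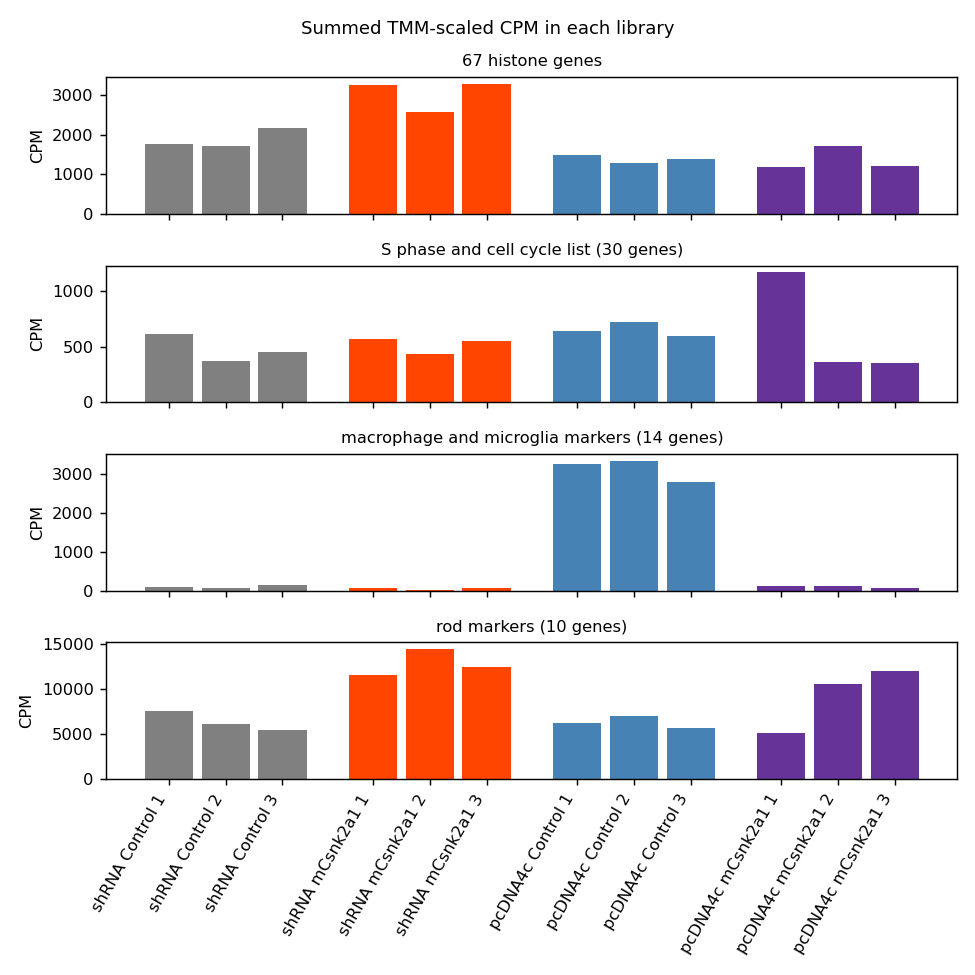
Bars show summed TMM-scaled CPM in each of 12 libraries for the 67 histone genes, 30 S phase and cell cycle genes, 14 macrophage and microglia markers and 10 rod markers (each panel has its own y axis from 0). The histone sum is highest in the shRNA mCsnk2a1 libraries, the cell cycle sum in pcDNA4c mCsnk2a1 1 at 1175 CPM (707 CPM of it Mki67), and the macrophage sum in the pcDNA4c Control libraries.

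Genes that process histone RNA or handle histone proteins were read as lists. Of 26 locus and processing factors 25 were tested, of 21 chaperones 20, of 16 replacement variants 12 and of 30 cell cycle genes 26. The processing list had held 28 symbols, of which Symplk and Zcchc11 matched no gene name and were not read. No gene of the 4 lists passed in edgeR in any of the 4 comparisons. In the hairpin comparison the unadjusted p was under 0.05 for 1 chaperone, Nap1l4, which was lower (beside 5.1% of all genes lower), and 1 variant, H3f3c, which was higher (beside 3.23% higher). In the vector comparison it was for 2 processing factors and 2 chaperones on the higher side, with 1 cell cycle gene, beside 2.15% of all genes. On the lower side were 1 processing factor, 1 variant and 5 cell cycle genes, beside 6.58% of all genes. DESeq2, which called 0.903% of all genes with the hairpin and 1.23% with the vector, called H3f3c in the first, and Ccnb1, a mitotic cyclin, Coil, the Cajal body protein coilin, and H2afj, an H2A variant, in the second.

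Slbp, the stem-loop binding protein gene, read 52.9, 71.4 and 24.4 CPM with shRNA Control and 15.4, 9.54 and 23.5 CPM with shRNA mCsnk2a1. The groups were separate, by less than 1 CPM (log2 fold change -1.62, SE 1.06, edgeR adjusted p = 0.745). With the expression vector it read 25.8, 9.71 and 47.7 CPM against 13.8, 17.0 and 18.3 CPM, which overlap (0.76, SE 1.04, edgeR adjusted p = 0.969). Processing factors had a median log2 fold change of 0.54 in the hairpin comparison, with 17 of 25 higher, and 0.46 in the vector comparison, again with 17 of 25 higher; all genes had medians of -0.03 and -0.16.

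Among 12 replacement variants the groups did not overlap for 1 with the hairpin, H3f3c, which was higher (beside 5.61% of all genes), and for 1 with the vector, H2afj, which was lower (beside 11.8%). Between the control vectors they did not overlap for 4: H2afy2 and H2afz were higher with shRNA Control (beside 5.13%), and H2afx and H2afy were lower (beside 8.56%). H3f3c had no count with shRNA Control and 0.376, 58.5 and 33.9 CPM with shRNA mCsnk2a1, which spread widely. It was a pooled 58.7-fold higher against the floor, with a fitted log2 fold change of 9.2 (SE 3.00, edgeR adjusted p = 0.598, DESeq2 adjusted p = 0.04). H3f3a had log2 fold changes of 0.11 (SE 0.37) and 0.36 (SE 0.37) with the hairpin and the vector, and H3f3b of 0.53 (SE 0.37) and 0.19 (SE 0.37), each with an edgeR adjusted p of 0.782 or more. H2afz, the variant H2A.Z, had -0.19 (SE 1.29) and 0.06 (SE 1.30). Coil read 8.86, 8.50 and 11.1 CPM with pcDNA4c Control and had no count with pcDNA4c mCsnk2a1, a pooled 26.6-fold lower against the floor (edgeR adjusted p = 0.568, DESeq2 adjusted p = 0.0471). H2afj read 21.6, 6.00 and 4.99 CPM and also had no count with the vector, a pooled 31.4-fold lower against the floor (edgeR adjusted p = 0.463, DESeq2 adjusted p = 0.0091). Cell cycle genes had a median of -1.57 in the vector comparison and of -0.23 in the hairpin comparison, against -0.16 and -0.03 over all genes. In the vector comparison 20 of 26 were lower and 23.1% were higher, against 45.1% of all genes higher. Among the lower genes, Mcm3, Uhrf1 and Ccna2 had no count with pcDNA4c mCsnk2a1.

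The remaining list genes with the smallest p in a comparison were described in the same way, and none passed in edgeR, with adjusted p of 0.568 or more. With the hairpin, Ncbp1, a subunit of the nuclear cap-binding complex, and Cstf3, a cleavage stimulation factor subunit, had log2 fold changes of 2.08 (SE 1.00) and 2.07 (SE 1.01). The chaperone genes Nap1l4 and Atrx had -1.65 (SE 0.77) and 0.73 (SE 0.44), and the cell cycle genes Mcm7, a replicative helicase subunit, and Plk1, a mitotic kinase, had -1.59 (SE 0.96) and 4.36 (SE 2.70). With the vector, Tut7, a uridylyl transferase, had 1.67 (SE 0.70), Atrx 1.08 (SE 0.44), Set 1.32 (SE 0.57), Cdk1 -5.41 (SE 2.00) and Ccnb1 -7.24 (SE 2.36). H2afv, which encodes a second H2A.Z, had -0.85 (SE 0.84).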

How the data were processed

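The authors estimated transcript abundances with kallisto 0.45.0 and list edgeR 3.28, per the submitters' processing notes, which name the mm10 build, and the release of the annotation was not stated there. The authors deposited a gene table of estimated counts that need not be whole, a transcript table whose columns share 1 total and so hold TPM, although its title calls them counts, and a table of scaled signal values that lacks the library pcDNA4c mCsnk2a1 1 and was not used for tests. Estimated counts were rounded. Genes were kept by filterByExpr (minimum count 10; 20267 genes), scaled by TMM, and tested with the edgeR 4.0.16 quasi-likelihood test in R 4.3.3 on all 12 libraries in 4 groups, with Benjamini-Hochberg adjustment over all genes tested and a threshold of 0.05. The test was checked on simulated counts with the same spread for every gene and large changes planted only in genes of higher level. That check does not cover sparse genes, as many members are. Alternatives were DESeq2 1.42.0, limma 3.58.1 (voom), other scalings, no or stricter count filters, a replicate block, only the 6 libraries compared, and leaving out each library. P-values measure the spread between these libraries. Transcript models came from GENCODE M21, whose gene positions equal those of all 67 members. Named members were those past the threshold, up to 4 in each direction per comparison with the smallest unadjusted p under 0.05, the 10 with the highest CPM and the highest in TPM of each class; of each list, those past the threshold or otherwise the pair with the smallest p, with Slbp, H3f3a, H3f3b and H2afz always; members in small counts, and the single markers left out of a marker sum, were chosen after their values were seen. The members and lists were chosen with earlier results of these data known.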

Additional observations from a re-analysis of the deposited data

How the results depend on the processing

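The 3 libraries of a group and a depth of 1608926 to 3567121 counts limit what could be detected, and members with few unique words are limited further. The count of members past the threshold was 0 under every scaling, filter and left-out library, and under limma voom, in each comparison; DESeq2 gave 1 with the vector (Hist1h2bn). Same-numbered libraries did not deviate together (9 correlations, -0.040 to 0.010), so no pairing by number was seen. Correlations near 0 between such small libraries do not show that pairing is absent. With the replicate block the count of members past the threshold was 0 in each comparison. DESeq2 also gave 1 for cell cycle genes with the vector (Ccnb1, log2 -7.52), 1 for processing factors with the vector (Coil, -7.09), 1 for variants with the hairpin (H3f3c, 8.14) and 1 with the vector (H2afj, -7.29), where edgeR gave 0. Without pcDNA4c mCsnk2a1 1, cell cycle genes gave 1 call (Mki67) with the vector and 1 in the difference of effects, so leave-one-out counts there ran from 0 to 1.

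Summed log2 ratios that moved by 1 SD or more in TPM were: all members 0.25 with the hairpin (0.50 by library size), 0.47 with the vector and 1.09 between controls; H1 0.54, 0.14 and 0.79; H2A 0.24 with the hairpin and 0.39 between controls; H2B -0.05 with the hairpin and 1.54 between controls; H4 0.98 with the vector and 1.82 between controls. Without its highest gene, H2A gave -0.06 with the hairpin and 0.93 between controls, and H2B gave 0.05 with the hairpin. The cause of these shifts was not tested.

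Several log2 fold changes near 0 changed sign. With 1 library left out at a time, values with the vector ran from -0.18 to 0.22 for Hist1h1c, -0.08 to 0.59 for Hist1h4d, -0.57 to 0.95 for Hist2h2bb, -1.11 to 0.07 for Hist2h3b, -1.25 to 0.22 for H2afv, -0.03 to 0.41 for H3f3b and -0.84 to 0.67 for H2afz. With the hairpin they ran from -0.07 to 0.49 for Hist4h4, -0.65 to 0.04 for Hist2h4, -0.28 to 0.33 for Hist1h4c, -0.76 to 0.47 for Hist2h3b, -0.31 to 2.59 for Cstf3 and -0.07 to 0.23 for H3f3a. Other settings also changed signs. With the vector, Hist1h1c was -0.10 by library size, Hist2h2bb -1.82 in limma voom, and H2afz -0.08 by library size, -1.98 in limma voom and -0.32 with the replicate block. With the hairpin, Hist1h4c was -0.03 (RLE and DESeq2), -0.14 (library size) and -0.01 (6 libraries), Hist2h3b -0.11 by library size and -0.21 in limma voom, and H3f3a -0.07 by library size.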
